A study of Mus musculus with 36 samples.

Results

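Complex I (NADH:ubiquinone oxidoreductase) is the entry point of electrons from NADH into the respiratory chain, and nearly all of its genes in the cell nucleus carry symbols that start with *Nduf*. The genes described here are the protein-coding genes of the GENCODE M21 annotation with such a symbol, which were 46 of the 55536 genes counted. They comprised 36 subunits, 8 assembly factors (*Ndufaf1* to *Ndufaf8*), and *Ndufa4* with its paralogue *Ndufa4l2*. Another 5 genes with an *Nduf* symbol were annotated as pseudogenes or as a long non-coding RNA and were left out, among them *Ndufb1-ps*. The counts came from 36 RNA sequencing libraries of mouse brown pre-adipocyte lines at days 0, 2 and 6 of differentiation. All lines derived from *Rxra*-/- clone 48 or *Rxra*-/- clone 66, each a monoclonal Cas9 knock-out, to which a retrovirus returned either the wild-type receptor RXRα (*Rxra*WT) or a version in which serine 22 was alanine (*Rxra*SA). There were 3 libraries for each clone, genotype and day, and hence 12 per day and 6 per clone and day. Day 0 cells had reached confluence in medium with insulin and triiodothyronine, and dexamethasone, isobutylmethylxanthine and indomethacin were added from then until day 2. Libraries of clone 48 were in pool 1 and those of clone 66 in pool 2, so clone and pool cannot be told apart. No line with intact *Rxra* or without re-expression was included in these libraries.

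Complex I is an L-shaped assembly in the inner mitochondrial membrane. Its matrix arm holds the N module, which oxidizes NADH, and the Q module, which reduces ubiquinone, while the membrane arm pumps protons. Core subunits carry out these reactions, accessory subunits surround and stabilize them, and assembly factors help to build the complex without remaining in it. The core subunits of the membrane arm are encoded on the mitochondrial chromosome by the *mt-Nd* genes. Brown adipocytes are rich in mitochondria and use respiration to produce heat.

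Total counts per library ranged from 11351078 to 24349263. Levels are given as CPM, the reads of a gene relative to the TMM-scaled library total, and per kilobase of exon (CPM per kb) where genes are compared with each other. Of the 10 adipocyte and brown adipocyte markers, 8 passed the filter on low counts and all 8 rose by day 2 and by day 6, and their summed level was 465 to 1299 CPM at day 0, 5549 to 7442 CPM at day 2 and 9082 to 14410 CPM at day 6. That sum was carried by genes of adipocytes in general, such as *Fabp4*, *Adipoq* and *Lpl*. *Plin1*, *Cidea* and *Elovl3* were at most 0.407, 0.0606 and 0.153 CPM at day 0. They passed the filter through the later days, so the filter itself favoured a rise of these genes. The markers particular to brown fat were low, with at most 5 reads of *Ucp1*, the uncoupling protein of thermogenic adipocytes, in any library, at most 1.66 CPM of *Cidea* and 1.30 CPM of *Dio2*, and a median of 5.85 CPM of *Elovl3* at day 2 and 0.471 CPM at day 6. *Rxra* was between 92.6 and 233 CPM at day 0, 400 and 712 CPM at day 2, and 182 and 347 CPM at day 6, and these counts do not distinguish the retroviral transcript from what remained of the endogenous one. The 6 pre-adipocyte markers took the opposite course, with summed levels of 255 to 465 CPM at day 0, 33.7 to 104 CPM at day 2 and 42.1 to 168 CPM at day 6, and all 4 that were tested fell by both days. Of these, *Cd34* had 18 to 81 reads per library at day 0 and at most 17 later. It passed the filter through day 0, which favoured a fall. Most markers of other cell types were low. The 5 macrophage markers summed to 2.77 to 12.7 CPM and the 5 endothelial markers to 0.157 to 1.06 CPM in any library, with at most 5 reads per library of *Ptprc*, *Adgre1*, *Cdh5*, *Kdr* and *Emcn*. The 6 skeletal muscle markers summed to 21.4 to 39.1 CPM at day 6 and to at most 6.52 CPM before. *Des* had medians of 2.47, 0.709 and 20.6 CPM at days 0, 2 and 6, and *Acta1* 2.2, 0.505 and 7.85 CPM. The other 4, *Myod1*, *Myog*, *Myf5* and *Ckm*, had at most 5 reads in any library, and *Myod1* had no read. These are bulk cultures, so fewer cells of a type and less RNA per cell cannot be told apart.

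All 46 *Nduf* genes passed the filter on low counts, as did 16723 genes in all. Their levels differed widely from gene to gene. The median over the 36 subunits rose from 52 CPM per kb at day 0 to 95.8 at day 2 and 98.7 at day 6, and the median over the 8 assembly factors was 7.55, 19.3 and 10.7 CPM per kb in that order. At day 6 the highest medians were those of *Ndufa2* (398 CPM per kb) and *Ndufb9* (371 CPM per kb), followed by the NADH-binding core subunit *Ndufv1* (208 CPM per kb). *Ndufa2* is an accessory subunit of the matrix arm and *Ndufb9* of the distal membrane arm. The lowest at day 6 were *Ndufa4l2* (1.58 CPM per kb), the assembly factor *Ndufaf2* (5.73 CPM per kb) and the acyl carrier subunit *Ndufab1* (5.81 CPM per kb). *Ndufab1* also serves in mitochondrial fatty acid synthesis. Since the length is that of all annotated exons, a gene with long or rarely used exons has a lower level per kb. Exons of 19 of the 46 genes overlap those of another gene, and reads of such stretches are uncertain. Most of the overlapping genes lie on the opposite strand, and the counting did not use the strand. *Gm49356* at *Ndufb9*, *Gm20538* at *Ndufb8* and *Gm42420* at *Ndufb2* lie on the same strand, where strand could not separate the reads. The overlap covered 65.65% of the exons of *Ndufaf2* (with *B230220B15Rik*), 39.0% of *Ndufb6* (*Smim27*), 29.98% of *Ndufa13* (*Tssk6*), 19.5% of *Ndufb9* (*Gm49356*), 12.89% of *Ndufb11* (*Rbm10*), 12.33% of *Ndufb5* (*Mrpl47*) and 11.54% of *Ndufa2* (*Tmco6*). It was under 8% for the others, such as *Ndufs1*, *Ndufs3*, *Ndufs6*, *Ndufab1*, *Ndufaf3*, *Ndufa4l2* and *Ndufb8*. In addition, 9 of the genes share a stretch of at least 200 bases and 95% identity with a transcript of another gene, among them *Ndufb3* (*Gm45930*), *Ndufs3* (*Gm12251*) and *Ndufs5* (*BC002163*), and their counts are uncertain to that extent.

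The comparison of days asked how complex I transcripts changed as the cells became adipocytes. Nearly all of them rose together by day 2. Between day 0 and day 2, 44 of the 46 genes were higher and none was lower, with a median log2 fold change of 0.87 over the 46 genes and -0.02 over all genes tested. In that comparison 35.8% of all genes tested were called higher and 37.5% lower (edgeR's quasi-likelihood test, Benjamini-Hochberg adjusted p under 0.05). Between day 0 and day 6, 42 of the 46 were higher and 1, *Ndufa4*, was lower (median log2 fold change 0.75, and -0.03 over all genes). Here 32.9% of all genes were called higher and 35.4% lower. Each of the 12 libraries of day 2 lay above each of the 12 libraries of day 0 for 25 of the 46 genes (13.6% of all genes), and each library of day 6 above each of day 0 for 19 of the 46 (12.2% of all genes). Clones 48 and 66 shared the sign of the change for 45 of the 46 genes at day 2 and for all 46 at day 6, and the change was called in the same direction in each clone for 40 and 36 genes (52.8% and 47.3% of all genes). Scaling by library size alone lowered the median of all genes by 0.26 at day 2 and by 0.19 at day 6 on the log2 scale, and the share of higher genes among all called genes was then 33.6% rather than 48.9% at day 2 and 34.9% rather than 48.2% at day 6. Under that scaling 38 of the 46 were still called higher at day 2 and 39 at day 6, and the median log2 fold changes of the 46 genes were 0.61 and 0.56.

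**Figure D1:**
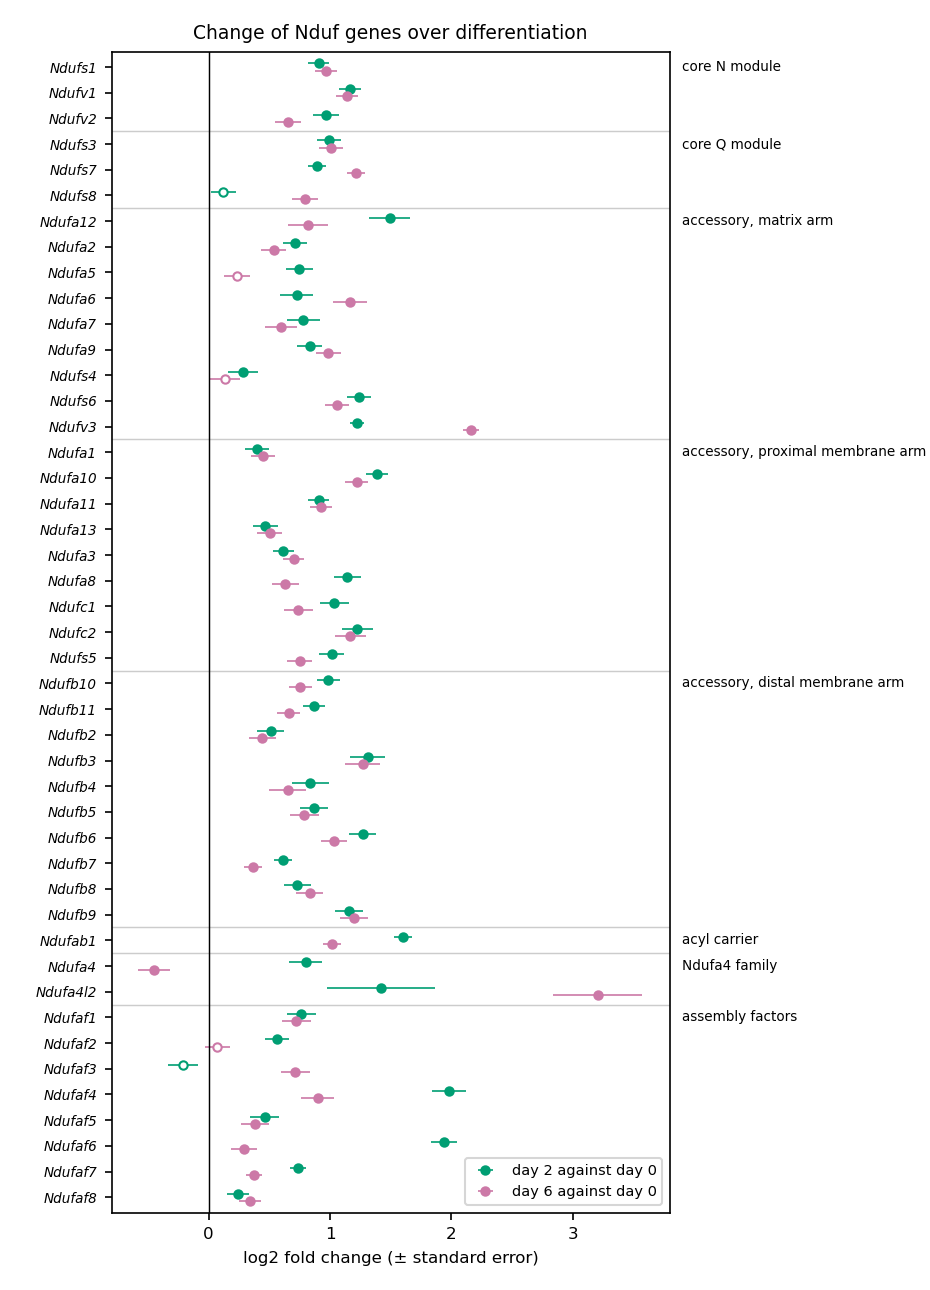
Log2 fold change and standard error of 45 of the 46 *Nduf* genes at day 2 (green) and day 6 (pink) against day 0, grouped by role in complex I. Filled points passed an adjusted p of 0.05 and open points did not, and *Ndufa4* is the single gene with a filled point below 0.

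The RefSeq promoter table (GRCm38.p6, 250 bases before to 50 bases after each start) held an entry for 40 of the 46 genes and was searched on both strands for motifs of factors known to act on mitochondrial genes. The NRF1 motif GCGCANGCG was found in the promoters of 10 of the 40 genes (25%, against 7.03% of the 27025 genes in the table). The ETS motif CCGGAAG, bound by GABP, was found in 6 (15.0% against 9.93%), the YY1 motif AAGATGG in 8 (20% against 7.28%) and the SP1 motif GGGCGG in 21 (52.5% against 38.2%). The cAMP response element TGACGTCA was found in 3 genes (7.5% against 2.03%) and the ERR motif AAGGTCA in 3 (7.5% against 5.38%). A direct repeat of AGGTCA with 1 base between, the element of RXR heterodimers with PPARγ, was found in none of the 40 windows and in 0.0481% of all genes. The median GC content was 59.3% in the promoters of the 40 genes and 52.7% in those of all genes. The median number of CG pairs was 20.5 and 7.0 in the same order. The part of either in the shares was not tested. In 7 of the 40 genes none of the motifs was found, *Ndufb3*, *Ndufv1* and *Ndufa4* among them. The sequences below are those of *Ndufaf4*, which rose most by day 2, of the core subunit *Ndufs3*, and of *Ndufa4*, which alone was lower at day 6. Matches are in capitals. They are NRF1 and SP1 in *Ndufaf4*, and SP1 and ETS in *Ndufs3*, where an SP1 and an ETS match overlap.
Ndufaf4, chr4:24897833-24898132, plus strand: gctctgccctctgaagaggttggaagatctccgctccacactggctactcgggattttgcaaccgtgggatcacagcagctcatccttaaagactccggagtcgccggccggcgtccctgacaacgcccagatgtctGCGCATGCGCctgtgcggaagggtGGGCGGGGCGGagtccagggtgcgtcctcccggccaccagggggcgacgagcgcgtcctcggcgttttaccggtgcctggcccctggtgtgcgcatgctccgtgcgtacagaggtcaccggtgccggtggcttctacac
Ndufs3, chr2:90904672-90904971, minus strand: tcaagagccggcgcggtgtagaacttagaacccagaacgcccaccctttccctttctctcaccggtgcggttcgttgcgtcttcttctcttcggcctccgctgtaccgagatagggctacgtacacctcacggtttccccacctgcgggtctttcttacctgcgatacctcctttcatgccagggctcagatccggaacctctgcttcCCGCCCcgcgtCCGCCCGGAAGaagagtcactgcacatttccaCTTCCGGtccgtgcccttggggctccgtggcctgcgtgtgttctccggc
Ndufa4, chr6:11907401-11907700, minus strand: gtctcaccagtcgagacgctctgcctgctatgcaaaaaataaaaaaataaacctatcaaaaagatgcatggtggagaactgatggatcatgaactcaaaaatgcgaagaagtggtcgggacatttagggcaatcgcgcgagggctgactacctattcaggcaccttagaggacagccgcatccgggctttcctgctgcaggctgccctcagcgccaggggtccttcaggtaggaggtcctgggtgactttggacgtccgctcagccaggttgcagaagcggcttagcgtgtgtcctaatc

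The 3 core subunits of the N module rose by day 2 and stayed high at day 6. *Ndufv1*, which binds NADH and FMN, had 194 to 306 CPM at day 0 (median 225), 429 to 737 CPM at day 2 (median 534) and 435 to 659 CPM at day 6 (median 548). No library of day 0 reached those of day 2 or day 6, and the log2 fold change against day 0 was 1.17 ± 0.09 (SE) at day 2 (adjusted p = 6.18e-14, edgeR) and 1.14 ± 0.09 at day 6. *Ndufs1*, an iron-sulfur protein and the largest core subunit of the matrix arm, had a median of 170 CPM at day 0 (125 to 257), 339 at day 2 (235 to 421) and 341 at day 6 (250 to 484). Its log2 fold changes were 0.91 ± 0.09 and 0.97 ± 0.09, and the highest day 0 libraries overlapped the lowest of both later days. *Ndufv2*, an iron-sulfur partner of *Ndufv1*, rose by 0.97 ± 0.11 (log2) at day 2 and was 0.65 ± 0.11 above day 0 at day 6.

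Core subunits of the Q module did not share a single course. *Ndufs7*, an iron-sulfur subunit close to the ubiquinone site, rose by day 2 and again by day 6, from 75.9 to 112 CPM (median 90.9) through 139 to 224 CPM (median 162) to 184 to 238 CPM (median 209). Day 0 did not overlap the later days, and the log2 fold changes were 0.89 ± 0.07 at day 2, 1.22 ± 0.08 at day 6 and 0.32 ± 0.07 between day 2 and day 6. *Ndufs8*, the other iron-sulfur subunit of the Q module, had 111 to 177 CPM at day 0 (median 139), 109 to 227 CPM at day 2 (median 143) and 182 to 324 CPM at day 6 (median 242). Days 0 and 2 overlapped and the log2 difference of 0.12 ± 0.11 did not pass the test (adjusted p = 0.30, edgeR), whereas day 6 lay above every library of day 0, with log2 fold changes of 0.80 ± 0.11 against day 0 and 0.67 ± 0.11 against day 2. In clone 48 it was 119 to 177 CPM at day 0 and 142 to 227 CPM at day 2, a rise of 0.38 ± 0.14 (adjusted p = 0.0219), whereas clone 66 had 111 to 165 and 109 to 143 CPM and a difference of -0.13 ± 0.14 (adjusted p = 0.43). The difference between these 2 changes did not pass the test of clone by time, except with a replicate block. *Ndufs3*, a Q module subunit next to the ubiquinone site, rose by 0.99 ± 0.10 (log2) by day 2 and was 1.01 ± 0.10 above day 0 at day 6.

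All 9 accessory subunits of the matrix arm were higher at day 2 and 7 of them at day 6. *Ndufv3*, a small subunit bound to the N module, rose most among the 36 subunits by day 6. Its level was 67.5 to 94.0 CPM at day 0 (median 82.6), 153 to 225 CPM at day 2 (median 191) and 313 to 465 CPM at day 6 (median 359). No libraries of different days overlapped, and the log2 fold change was 1.22 ± 0.06 by day 2 (adjusted p = 9.11e-19), 2.16 ± 0.06 by day 6 (adjusted p = 1.88e-25) and 0.94 ± 0.06 from day 2 to day 6. *Ndufa12*, which replaces the assembly factor *Ndufaf2* late in the building of the N module, was 51.2 to 114 CPM at day 0 (median 74.0), 141 to 296 CPM at day 2 (median 222) and 82.3 to 205 CPM at day 6 (median 128). Its peak was at day 2, where it was 1.49 ± 0.17 (log2) above day 0 before a fall by 0.67 from day 2 to day 6 (SE 0.16), a call that was lost without the libraries of replicate 2 (-0.52). *Ndufa5* and *Ndufs4*, the latter an N module subunit whose loss causes Leigh syndrome, were called higher at day 2 but not at day 6. For *Ndufs4* the levels of all 3 days overlapped, from 73.8 to 138 CPM at day 0, 82.8 to 169 CPM at day 2 and 82.5 to 159 CPM at day 6. Its log2 fold change of 0.28 ± 0.12 at day 2 (adjusted p = 0.0412, edgeR) no longer passed when any 1 of 6 day 0 libraries was left out, where it was between 0.24 and 0.27. These were replicates 1 and 2 of clone 48 *Rxra*WT, replicate 3 of clone 48 *Rxra*SA, replicate 3 of clone 66 *Rxra*WT, and replicates 2 and 3 of clone 66 *Rxra*SA. *Ndufa5* was 0.23 ± 0.11 (log2) above day 0 at day 6 (adjusted p = 0.0577), and 0.20 ± 0.07 with replicate number as a block (adjusted p = 0.00944). The other 5 matrix arm subunits (*Ndufa2*, *Ndufa6*, *Ndufa7*, *Ndufa9* and *Ndufs6*) were 0.54 to 1.17 (log2) above day 0 at day 6.

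In the membrane arm, all 9 accessory subunits of the proximal part and all 10 of the distal part were higher at both later days. *Ndufb3*, a small subunit of the distal part, had 39.8 to 82.7 CPM at day 0 (median 49.6), 80.5 to 187 CPM at day 2 (median 143) and 89.8 to 187 CPM at day 6 (median 133). Its log2 fold change was 1.31 ± 0.14 at day 2 (adjusted p = 5.94e-10) and 1.27 ± 0.14 at day 6 (adjusted p = 1.38e-09), and the highest library of day 0 lay just above the lowest of day 2 and below every library of day 6. *Ndufa10*, a proximal subunit related to nucleoside kinases, had a median of 119 CPM at day 0 (90.5 to 173), 302 at day 2 (255 to 377) and 271 at day 6 (227 to 380), with log2 fold changes of 1.39 ± 0.09 and 1.22 ± 0.09. The day 0 libraries of *Ndufa10* were all below those of the later days. Changes of the other proximal subunits lay between 0.40 (*Ndufa1*) and 1.23 (*Ndufc2*) at day 2 on the log2 scale, and those of the other distal subunits between 0.51 (*Ndufb2*) and 1.27 (*Ndufb6*). At day 6 the distal subunits ranged from 0.37 (*Ndufb7*) to 1.27 (*Ndufb3*). Calls at day 6 were lost without replicate 1 for *Ndufb7* (0.20, adjusted p = 0.0542) and *Ndufb2* (0.26, adjusted p = 0.0633), and that of *Ndufa1* at day 2 without replicate 2 (0.26, adjusted p = 0.0868). With library size alone *Ndufa1*, *Ndufa13* and *Ndufb2* were not called at day 2.

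*Ndufa4* and its paralogue took opposite courses after day 2. *Ndufa4* was first assigned to complex I and is now regarded as a subunit of complex IV, and *Ndufa4l2* is known as a gene induced under hypoxia. *Ndufa4* had 215 to 412 CPM at day 0 (median 305), 396 to 727 CPM at day 2 (median 561) and 152 to 347 CPM at day 6 (median 219). Every library of day 6 was below every library of day 2, while days 0 and 6 overlapped. It rose by 0.80 ± 0.13 (log2) by day 2, fell by 1.25 from day 2 to day 6 (SE 0.14, adjusted p = 7.85e-10) and was -0.45 ± 0.13 from day 0 at day 6 (adjusted p = 0.00366). The last difference was -0.28 ± 0.19 in clone 48 (adjusted p = 0.224) and -0.61 ± 0.19 in clone 66 (adjusted p = 0.00804), and without the libraries of replicate 3 it was -0.31 and not called (adjusted p = 0.0625). *Ndufa4l2* was near the limit of detection, with 0 to 9 reads per library at day 0, 1 to 16 at day 2 and 7 to 64 at day 6. Its level was at most 0.430 CPM at day 0, at most 1.04 CPM at day 2 and 0.435 to 3.11 CPM at day 6, and its log2 fold change by day 6 was 3.21 ± 0.37 (adjusted p = 1.64e-09). *Ndufa4l2* passed the filter on low counts mainly through day 6. That filter favoured its call as higher, so the call is no independent evidence of a rise. The fold change of 1.42 ± 0.44 by day 2 was not called without replicate 3 (1.17, adjusted p = 0.103).

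The assembly factors and the acyl carrier subunit included the genes that rose most by day 2. *Ndufaf4*, an early assembly factor of the Q module, went from 16.9 to 29.5 CPM at day 0 (median 21.7) to 66.1 to 121 CPM at day 2 (median 83.6) and back to 26.0 to 60.6 CPM at day 6 (median 43.6). Day 2 stood clear of day 0 and above every library of day 6, with a log2 fold change of 1.98 ± 0.14 by day 2 (adjusted p = 7.83e-15) and a fall by 1.09 from day 2 to day 6 (SE 0.14). *Ndufaf6*, another factor of early Q module assembly, was 8.29 to 12.6 CPM at day 0 (median 9.87), 26.5 to 47.5 CPM at day 2 (median 40.8) and 8.28 to 18.9 CPM at day 6 (median 11.9). It was therefore high only at day 2 in these libraries, rising by 1.94 ± 0.11 (log2) and falling by 1.65 (SE 0.11). The remaining 0.29 ± 0.11 above day 0 at day 6 was called (adjusted p = 0.0155) but not without replicate 1 (0.12, adjusted p = 0.363). *Ndufab1* had 14 to 23.9 CPM at day 0, 48.0 to 66.8 CPM at day 2 and 32.2 to 44.9 CPM at day 6, with no overlap of the 3 days, a log2 fold change of 1.6 ± 0.08 by day 2 and a fall by 0.58 thereafter (SE 0.07). *Ndufaf3*, which works with *Ndufaf4*, did not share its peak. It had 7.14 to 18.5 CPM at day 0 (median 11.0), 5.80 to 16.3 CPM at day 2 (median 8.94) and 11.8 to 27.8 CPM at day 6 (median 18.6). All days overlapped, and the log2 difference was -0.21 ± 0.12 at day 2 (adjusted p = 0.118), or -0.21 ± 0.09 with a replicate block (adjusted p = 0.0404), and 0.71 ± 0.12 at day 6 (adjusted p = 3.5e-06). *Ndufaf2*, an N module factor most of whose exons overlap another gene, rose by 0.56 ± 0.10 (log2) by day 2 and was 0.07 ± 0.10 from day 0 at day 6 (adjusted p = 0.552). Without replicate 3 that value was 0.26 (adjusted p = 0.0105). The other 4 factors (*Ndufaf1*, *Ndufaf5*, *Ndufaf7* and *Ndufaf8*) rose by 0.24 to 0.77 (log2) by day 2 and were 0.34 to 0.72 above day 0 at day 6. The lowest of these, *Ndufaf8*, was not called at day 2 without replicate 2 (0.19), without replicate 3 (0.23) or with library size alone (-0.02). At day 6 neither *Ndufaf8* (0.26) nor *Ndufaf5* (0.28) was called without replicate 1, nor with library size alone.

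**Figure D2:**
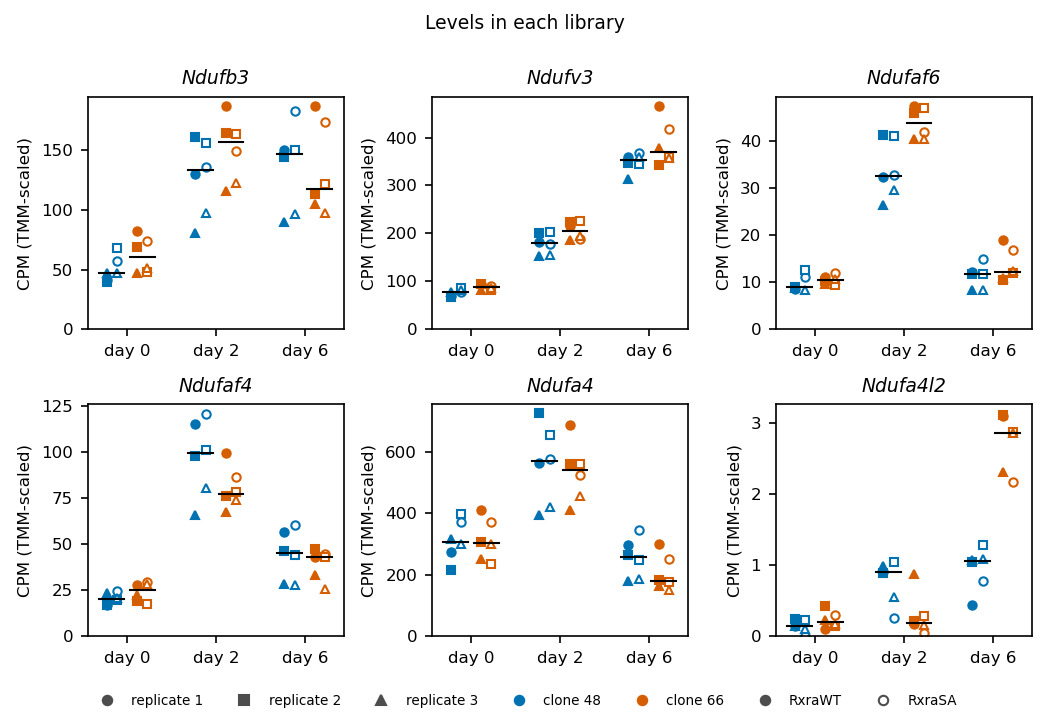
TMM-scaled CPM of 6 *Nduf* genes in each of the 36 libraries by day, with clone 48 in blue and clone 66 in orange, filled symbols for *Rxra*WT and open symbols for *Rxra*SA, symbol shape for the replicate number and a line at the median of each clone and day (6 libraries). *Ndufaf6* and *Ndufaf4* were highest at day 2, *Ndufv3* rose at each step, and *Ndufa4l2* reached 2.17 to 3.11 CPM in clone 66 at day 6 against 0.435 to 1.29 CPM in clone 48.

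Between day 2 and day 6 the 46 genes did not share 1 direction. Of the 46, 6 were higher (*Ndufa4l2*, *Ndufv3*, *Ndufaf3*, *Ndufs8*, *Ndufa6* and *Ndufs7*) and 15 were lower at day 6. The median log2 fold change was -0.08 over the 46 genes and 0.01 over all genes. Of all genes, 31.9% were called higher and 30.1% lower. The 15 lower genes were thus close to the general share, and the 6 higher genes were below it. Over all 3 comparisons the most common course was shown by 24 genes. These were called higher at both later days and were not called between day 2 and day 6. The lack of that call does not show an unchanged level. The share of all genes with each course was not counted. A rise followed by a partial fall that left the gene above day 0 was shown by 12 genes, and a rise at both steps by 4. Except for these, *Ndufa5* and *Ndufaf2* rose and then fell to a level not called different from day 0, *Ndufs8* and *Ndufaf3* were not called at day 2 over both clones and were higher at day 6, *Ndufa4* ended below day 0, and *Ndufs4* passed the test only at day 2. The number of genes lower at day 6 than at day 2 rested on the replicate numbers. It was 21 without replicate 1, 8 without replicate 2 and 9 without replicate 3. Of all genes tested, 4210 of 16802 were called lower without replicate 2 and 4322 of 16755 without replicate 3. In each of these fits 8 genes remained called lower (*Ndufa4*, *Ndufa5*, *Ndufa8*, *Ndufab1*, *Ndufaf2*, *Ndufaf4*, *Ndufaf6* and *Ndufaf7*), and 5 remained called higher, all of the 6 but *Ndufa6*. The share of all genes that remained called in each of the 3 fits was not counted. The falls of *Ndufa12*, *Ndufb7*, *Ndufb10*, *Ndufb11*, *Ndufc1*, *Ndufs5* and *Ndufv2* were not called in at least 1 of them.

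The summed level of the 46 genes was 3291 to 4997 CPM at day 0 (median 3951), 5972 to 9341 CPM at day 2 (median 7564) and 5814 to 9245 CPM at day 6 (median 6848), so that both later days lay above day 0 in every library. It moved with the replicate number. At day 6 the 4 libraries of replicate 1 summed to 7977 to 9245 CPM, those of replicate 2 to 6352 to 7433 CPM and those of replicate 3 to 5814 to 6189 CPM. At day 2 the ranges were 7183 to 8502, 7994 to 9341 and 5972 to 6596 CPM in the same order. From day 2 to day 6 the median therefore went from 7564 to 8522 CPM in replicate 1, from 8514 to 6848 CPM in replicate 2 and from 6309 to 5912 CPM in replicate 3. Reads of the mitochondrial chromosome took 1.96 to 2.48% of the counts in replicate 1, 2.18 to 6.78% in replicate 2 and 4.15 to 9.09% in replicate 3 at day 6, and their part in these differences was not tested. The assembly factors summed to 135 to 180 CPM at day 0, 246 to 359 CPM at day 2 and 173 to 289 CPM at day 6. The core N module summed to a median of 534, 1116 and 1022 CPM and the core Q module to 543, 840 and 1014 CPM over the 3 days.

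**Figure D3:**
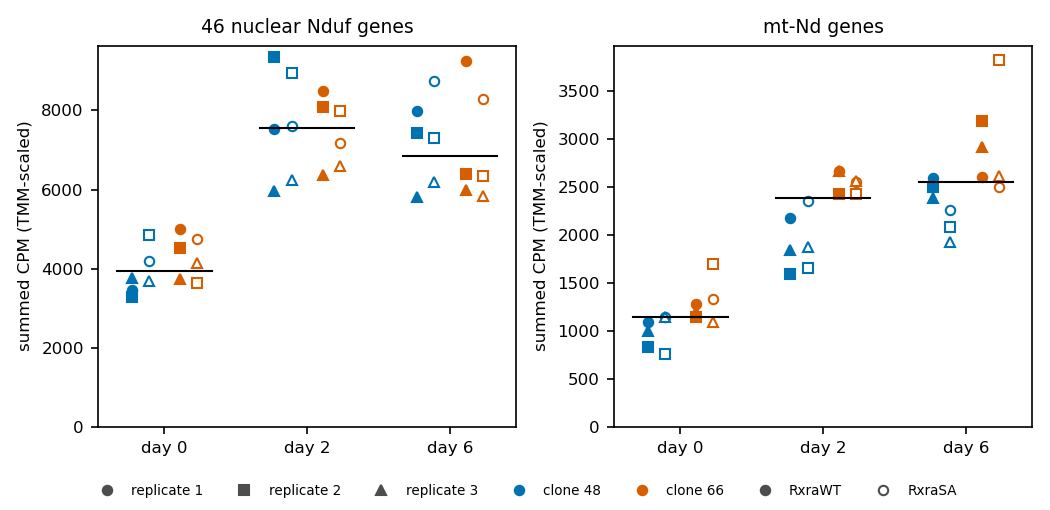
Sum of TMM-scaled CPM over the 46 nuclear *Nduf* genes (left) and over the *mt-Nd* genes of the mitochondrial chromosome (right) in each library, with colour for the clone, fill for the genotype, shape for the replicate number and a line at the median of the 12 libraries of a day. In the left panel the 4 triangles (replicate 3) are the lowest libraries at day 2 and, at 5814 to 6189 CPM, at day 6.

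Other genes of complex I and of the respiratory chain were counted from fixed lists. The *mt-Nd* genes summed to 754 to 1696 CPM at day 0, 1593 to 2668 CPM at day 2 and 1930 to 3822 CPM at day 6. Of the 7 genes 6 passed the filter, all 6 were higher at both later days, and their median log2 fold change was 1.03 at day 2 and 1.47 at day 6. The largest at day 6 were those of *mt-Nd6* (1.97 ± 0.11), *mt-Nd3* (1.86 ± 0.33) and *mt-Nd5* (1.6 ± 0.07). *mt-Nd3* had few reads, at most 0.254 CPM at day 0, and passed the filter mainly through day 6, which favoured a rise. *mt-Nd4l* had no read in any library, and *mt-Nd1* had the highest medians (668, 1418 and 1208 CPM at days 0, 2 and 6). The cause of the low counts of *mt-Nd3* and *mt-Nd4l* was not tested. Of 11 assembly factors with other symbols, 8 were higher and none lower at day 2, and 7 were higher and 2 lower at day 6. The most changed at day 6 were *Foxred1* (1.45 ± 0.09), *Ecsit* (1.25 ± 0.07) and *Nubpl* (1.04 ± 0.11), the last an iron-sulfur cluster carrier for complex I, and the lower ones were *Tmem126a* (-0.34 ± 0.12) and *Tmem126b* (-0.49 ± 0.10). Among 10 measured regulators of mitochondrial biogenesis, 5 were higher and 1 lower at day 2 and 7 were higher at day 6, led by the coactivator *Ppargc1b* (2.65 ± 0.25), the receptor *Esrra* (1.28 ± 0.09) and the coactivator *Ppargc1a* (0.63 ± 0.13). *Nrf1* changed by 0.05 ± 0.08 at day 2 (adjusted p = 0.606) and 0.31 ± 0.08 at day 6, and *Gabpa* by -0.11 ± 0.08 (adjusted p = 0.232) and 0.09 ± 0.08 (adjusted p = 0.335). The regulator lower at day 2 was *Yy1*, with medians of 103, 78.8 and 153 CPM at days 0, 2 and 6. In complexes II to V, 36 of 39 measured genes were higher at day 2 and 37 at day 6, with median log2 fold changes of 1.04 and 0.97. Examples at day 6 were *Sdha* of complex II (1.58 ± 0.19), *Cyc1* of complex III (1.87 ± 0.12) and *Atp5b* of complex V (1.22 ± 0.09). *Cox8b* and *Cox7a1*, complex IV isoforms typical of muscle and brown fat, were at most 0.567 CPM in any library of days 0 and 2 and reached 25.7 to 49.7 CPM and 4.06 to 26.7 CPM at day 6. Both passed the filter on low counts through day 6. These lists were chosen with results of the same libraries known, and none of the counts is independent evidence.

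*Rxra*SA was compared with *Rxra*WT on each day to ask whether serine 22 of RXRα bore on these transcripts. None of the 46 genes differed between genotypes at day 0, 2 or 6 in edgeR's test, and 0.0% of all genes did. None of the 46 had an unadjusted p under 0.05 at day 0, day 2 or day 6, where 0.831%, 0.969% and 0.747% of all genes had one. Those shares are far below what a threshold of 0.05 gives without any difference, so the test was conservative. Its fit had no term for same-numbered libraries, and the lack of calls is weak evidence of equality. DESeq2 called none of the 46 either. Over the 46 genes the median log2 difference was 0.08, -0.03 and -0.01 on the 3 days in order, with values above 0 for 41, 9 and 20 of them, and at day 0 the median over all genes was -0.004. At day 0 the summed level did not differ in 1 direction across the pairs of libraries with the same clone and number. It was higher in *Rxra*SA for replicates 1 and 2 of clone 48 (4194 against 3450 CPM and 4841 against 3291 CPM) and lower for those of clone 66 (4741 against 4997 CPM and 3633 against 4525 CPM). Replicate 3 had 3682 against 3755 CPM in clone 48 and 4148 against 3734 CPM in clone 66. For *Ndufb3* the median was 47.1 CPM in *Rxra*WT (39.8 to 82.7) and 54.1 CPM in *Rxra*SA (47.5 to 74.3) at day 0, 146 (80.5 to 187) and 143 (97.6 to 164) at day 2, and 129 (89.8 to 187) and 136 (97.0 to 183) at day 6. The genotypes overlapped on each day, and the log2 differences were 0.10 ± 0.20, -0.02 ± 0.20 and 0.07 ± 0.20. *Ndufv3*, the subunit with the smallest error, differed by 0.06 ± 0.09, -0.02 ± 0.09 and 0.01 ± 0.09. In edgeR's model across all genes the smallest p-values belonged to *Ndufs4* at day 0 (log2 difference 0.22 ± 0.17), *Ndufa4l2* at day 2 (-0.83 ± 0.54) and *Ndufa5* at day 6 (-0.09 ± 0.15), each with an adjusted p of 1. *Ndufa4l2* at day 2 rested on 3 to 16 reads per *Rxra*WT library and 1 to 15 reads per *Rxra*SA library.

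**Figure D4:**
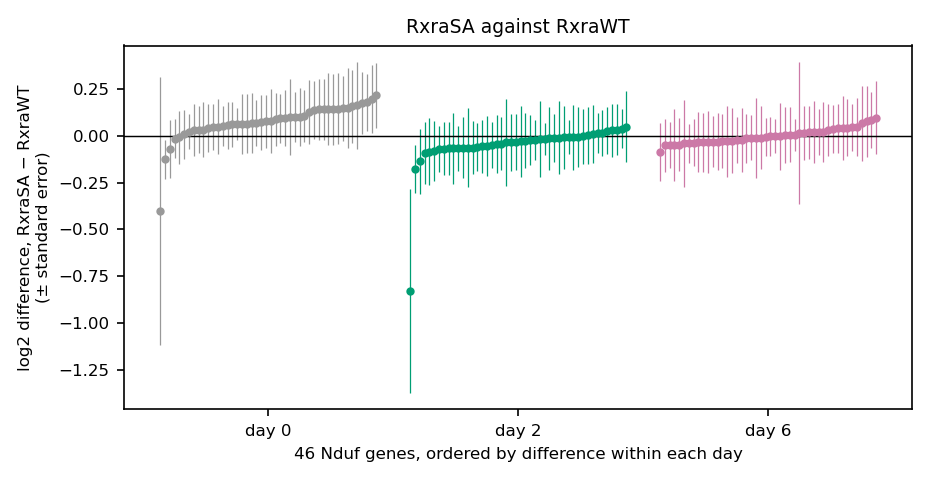
Log2 difference between *Rxra*SA and *Rxra*WT with its standard error for each of the 46 *Nduf* genes, ordered by value within day 0 (grey), day 2 (green) and day 6 (pink). No point passed an adjusted p of 0.05, and the lowest point, at day 2, is *Ndufa4l2* (-0.83).

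The change over time did not pass the test of a difference between genotypes for any of the 46 genes either. For the interaction of genotype and time, 0.0% of all genes passed at day 2 or day 6 and 0.861% and 0.765% had an unadjusted p under 0.05, but none of the 46. This test was conservative in the same way. In edgeR's model the smallest p-values were those of *Ndufaf3* at day 2 (interaction -0.28 ± 0.24 on the log2 scale) and *Ndufs4* at day 6 (-0.24 ± 0.25), each with an adjusted p of 1. The median interaction over the 46 genes was -0.13 at day 2 and -0.08 at day 6. A block for same-numbered libraries within each day gave unadjusted p-values of 0.0351 for the genotype difference of *Ndufs4* at day 0 and 0.0216 for that of *Ndufa4l2* at day 2, and the adjusted p-values of 0.807 and 1 (edgeR) did not pass.

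The clones differed in a few of the genes on every day, which also describes the library pools. At day 0, 4 of the 46 were higher in clone 66 (12.6% of all genes) and 2 were lower (11.1%). At day 2, 3 were higher (14.5%) and 5 lower (15.5%), and at day 6, 3 were higher (13.4%) and 2 lower (12.8%). With library size alone, the share of higher genes among all genes called at day 6 was 41.0% instead of 51.2%. *Ndufa2* was higher in clone 66 on all days. It had 93.9 to 158 CPM in clone 48 and 182 to 239 CPM in clone 66 at day 0, 153 to 256 and 277 to 393 CPM at day 2, and 141 to 216 and 239 to 378 CPM at day 6. The clones did not overlap on any day, and the log2 differences were 0.90 ± 0.14 (adjusted p = 1.83e-05), 0.72 ± 0.14 and 0.68 ± 0.14. *Ndufb11*, a distal membrane arm subunit encoded on the X chromosome, was lower in clone 66 on all days. It had 103 to 155 and 65.9 to 93.0 CPM at day 0, 159 to 259 and 130 to 172 CPM at day 2, and 153 to 215 and 104 to 162 CPM at day 6, with log2 differences of -0.57 ± 0.13, -0.43 ± 0.13 and -0.57 ± 0.13. The clones overlapped for *Ndufb11* at days 2 and 6.

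*Ndufs1* and *Ndufs6*, an N module subunit that binds zinc, were higher in clone 66. *Ndufa10* was higher at day 0 (0.41 ± 0.12, adjusted p = 0.0152), a call lost at 0.32 without clone 66 *Rxra*WT or *Rxra*SA replicate 1. The call was also lost without all libraries of replicate 1, 2 or 3 (adjusted p = 0.172, 0.0686 and 0.0543 in edgeR's test). For *Ndufs6* clone 48 had 6.97 to 14.6 CPM and clone 66 had 13.9 to 21.8 CPM at day 0, a log2 difference of 0.72 ± 0.14 (adjusted p = 0.000242). The differences of 0.39 ± 0.14 at day 2 (adjusted p = 0.0302) and 0.36 ± 0.14 at day 6 (adjusted p = 0.0528) lay on both sides of the threshold. *Ndufs1* had 125 to 165 and 176 to 257 CPM at day 0 with no overlap, and the log2 differences were 0.57 ± 0.12 (adjusted p = 0.00083), 0.32 ± 0.12 (adjusted p = 0.0491) and 0.33 ± 0.12 (adjusted p = 0.0482). The calls of *Ndufs1* at days 2 and 6 were lost in 24 and 23 other settings, among them library size alone, no filter and the omission of each replicate number. *Ndufaf3* was lower in clone 66 at day 0 (-0.55 ± 0.17) and at day 2 (-0.82 ± 0.17), where clone 48 had 9.37 to 16.3 CPM and clone 66 had 5.80 to 8.52 CPM. *Ndufs8* (-0.53 ± 0.14, adjusted p = 0.00546) and *Ndufv1* (-0.38 ± 0.11, adjusted p = 0.0132) were lower in clone 66 at day 2 and *Ndufa1*, a proximal subunit also encoded on the X chromosome, at day 6 (-0.49 ± 0.14, adjusted p = 0.0113). The call of *Ndufa1* was lost without clone 48 *Rxra*SA replicate 1 (-0.38) or clone 66 *Rxra*WT replicate 3 (-0.41). *Ndufa4l2* was lower in clone 66 at day 2 (-1.49 ± 0.41) and higher at day 6 (1.52 ± 0.28, adjusted p = 0.000129). At day 2 the clones overlapped near the limit of detection, with 0.253 to 1.04 CPM in clone 48 and 0.054 to 0.872 CPM in clone 66. The numbers of called genes were small and moved with single libraries. At day 2 the number higher in clone 66 was 1 without clone 48 *Rxra*WT replicate 1, clone 48 *Rxra*SA replicate 1 or 3, clone 66 *Rxra*WT replicate 2 or clone 66 *Rxra*SA replicate 2, and was 7 and 6 without replicate 2 of clone 48 *Rxra*WT and *Rxra*SA. The number lower at day 2 was 3 without either of the last 2 libraries, and the number lower at day 6 was 4 without clone 66 *Rxra*WT or *Rxra*SA replicate 1. Without all libraries of replicate 2, *Ndufa2* and *Ndufs1* were higher at day 0, *Ndufa2* alone at day 2, and no call of a lower gene was left at day 0 or day 6. Of the genes lower at day 2, *Ndufs8* (-0.41, adjusted p = 0.18), *Ndufv1* (-0.33, adjusted p = 0.168), *Ndufb11* (-0.30, adjusted p = 0.269) and *Ndufa4l2* (-1.38, adjusted p = 0.103) were not called in that fit, and *Ndufv1* was not called without replicate 3 or with no filter either.

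**Figure D5:**
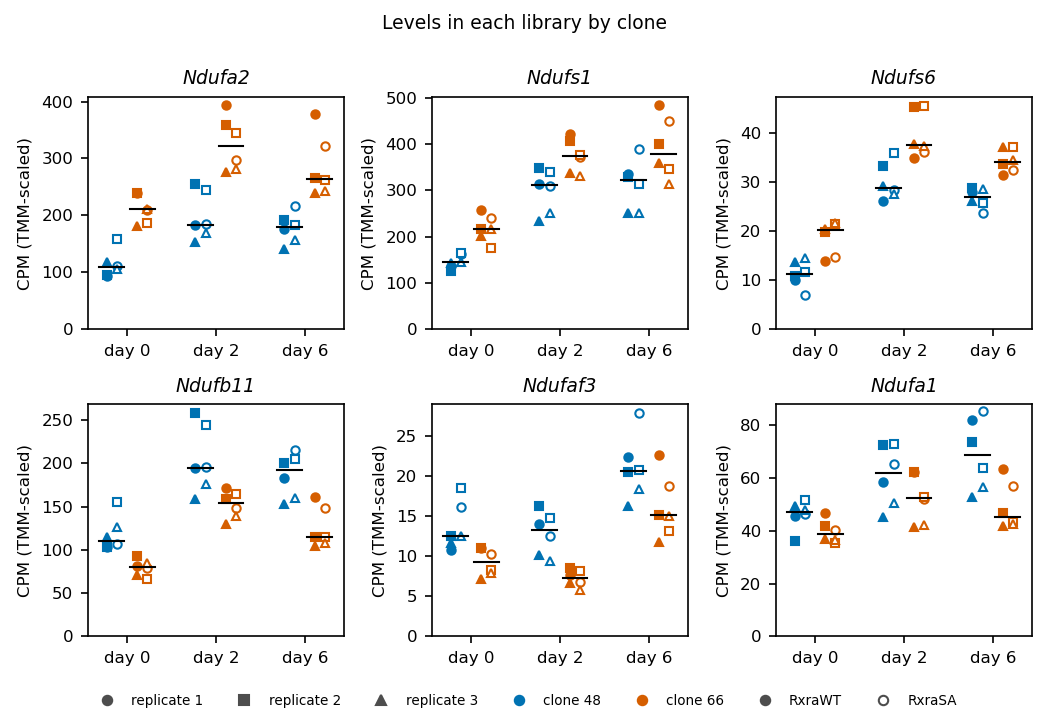
TMM-scaled CPM of 6 *Nduf* genes in each of the 36 libraries by day, with clone 48 in blue, clone 66 in orange, filled symbols for *Rxra*WT, open symbols for *Rxra*SA, shapes for the replicate number and lines at the median of each clone and day. *Ndufa2* was higher in clone 66 than in clone 48 on each day without overlap, and *Ndufb11* was lower, with overlap at days 2 and 6.

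Whether the clones differed in their change over time was tested with an interaction of clone and time. None of the 46 genes passed at day 2 or day 6 (6.84% and 3.85% of all genes did), and 5 and 2 of them had an unadjusted p under 0.05 (18.4% and 13.9% of all genes). The share with a larger change in clone 66 among all genes called at day 6 was 54.7%, and 43.3% with library size alone. The median interaction over the 46 genes was -0.17 at day 2 and -0.22 at day 6 on the log2 scale. The smallest adjusted p of edgeR was that of *Ndufa4l2* at day 2 (-2.10 ± 0.67, adjusted p = 0.055). With the replicate number of each clone as a block, 5 genes passed at day 2, all with a lower value of the change in clone 66 than in clone 48, as did 6.55% of all genes in that fit. Among them were *Ndufa4l2* (-2.12 ± 0.63, adjusted p = 0.0233) and the core subunits *Ndufs8* (-0.49 ± 0.15, adjusted p = 0.0284), *Ndufv1* (-0.39 ± 0.13, adjusted p = 0.0389) and *Ndufs7* (-0.31 ± 0.10, adjusted p = 0.0454). DESeq2 called *Ndufa4l2* alone (adjusted p = 0.0201).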

How the data were processed

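RNA was sequenced from 36 libraries. The authors made strand-specific libraries from total RNA, mapped the read pairs to GRCm38 (STAR 2.7.0d) and deposited raw counts per gene over GENCODE M21 exons (featureCounts 1.6.2), for which the strand was not used. Groups came from the sample labels. The replicates are called technical in the deposited design and independent in the study's methods, so p-values measure the spread between these libraries. No pair of replicates agreed within sampling noise.

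Counts were filtered (filterByExpr), scaled by TMM and tested with the quasi-likelihood test of edgeR 4.0.16 in its earlier form (limma 3.58.1, R 4.3.3), with genotype by day as groups and clone as an added term. Clone comparisons had one coefficient per clone, genotype and day. Errors are SE of log2 values, and p-values were adjusted over the 16723 genes tested. The fits were also run on simulated counts with 200 changed genes. Those counts held no effect of the replicate number, so they do not bear on same-numbered libraries or on the conservative genotype test. Deviations of same-numbered *Rxra*WT and *Rxra*SA libraries correlated in all 18 pairs (0.175 to 0.933), so the numbers were taken to pair libraries. The main fits had no term for these pairs, which entered only in the block alternatives. Alternatives included a replicate block, DESeq2 1.42.0, other scalings and filters, and omission of each library and, chosen after seeing the data, of each replicate number. The genes, lists and rules were chosen with earlier results of these data known. Values of 1 gene are not reported here. Genes named with values were core subunits, *Ndufb3*, *Ndufa4* and *Ndufa4l2*, up to 4 genes per direction and day comparison, up to 4 per clone comparison, the smallest p-value per genotype comparison, the 3 highest and lowest levels, and up to 3 genes per pathway list. Genes that left the common course, *Nrf1*, *Gabpa*, *Yy1*, *Des* and *Acta1* were singled out after their values were seen. Python 3.11.15, pandas 2.3.3, numpy 2.4.6 and matplotlib 3.10.9 were used for summaries and plots.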

Additional observations from a re-analysis of the deposited data

How the results depend on the processing

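The numbers of *Nduf* genes higher at day 2 and at day 6 than at day 0, and those that differed between genotypes, stayed within 1.5 times the reported values in the alternatives run. With each library left out in turn, 43 to 44 genes were higher at day 2 and 42 to 43 at day 6, and with each replicate number left out, 41 to 44 and 37 to 44. The number lower at day 2 than at day 0 was 0, and 1 (*Ndufaf3*) with a replicate block or with library size alone. *Ndufaf8* was the one gene that reversed, with a log2 change of -0.02 at day 2 under library size alone. The number lower at day 6 than at day 0 was 1, and 0 without replicate 3 of all groups. The number lower at day 6 than at day 2 was 15, and 9 with library size alone, 11 to 18 with single libraries left out and 8 to 21 with replicate numbers left out.

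Between clones, 4 genes were higher in clone 66 at day 0, 8 in a fit of the libraries of that day alone, 3 to 5 with single libraries left out and 2 to 4 with replicate numbers left out, and 2 were lower, or 0 to 2 with replicate numbers left out. At day 2, 3 were higher, 7 with a filter of 1 CPM in 6 libraries, 5 in a fit of that day alone, 1 to 7 with single libraries left out and 1 to 2 with replicate numbers left out, and 5 were lower, 3 to 7 and 1 to 5 in the same omissions. At day 6, 2 were lower, and 1 to 4 and 0 to 3 in those omissions. For the interaction of clone and time at day 2 the replicate block gave 5 lower genes, and edgeR's version 4 test, DESeq2, library size alone and no filter gave 1 each, with 0 to 1 over single libraries left out. Apart from these and *Ndufaf3* at day 2, the replicate block moved no count by more than 1.5 times. Over the other settings, 5784 values of the 127 differences called here kept their direction and side of the threshold and 126 lost their call, and 47 of the values with replicate numbers left out lost theirs. Calls were gained as well, 58 of them against 82 lost over the settings other than single libraries left out. The causes of these changes were not tested. Genes with few reads, *Ndufa4l2* above all, are limited by counting error.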
